A study of Mus musculus with 15 samples.

Results

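The EGF receptor family and its ligands were followed in 15 mouse libraries of poly(A)-selected RNA, as the 10 genes of a 55471-gene count table that carry the symbols Egfr, Erbb2, Erbb3, Areg, Ereg, Hbegf, Btc, Tgfa, Nrg1 and Epgn. The genes were chosen by name. The cells are labelled MSCLCs, an abbreviation that the labels do not spell out, and the title of the series speaks of YAP1, the fusion oncogene EWS::FLI1, IGF-1 and mesenchymal stem cells of bone. Experiment 1 compared 3 libraries called WT here with 4 called EF. The genotype of the WT libraries is given as MSC, and their titles carry 202, 234 and 237. The titles with 234 and 237 add WT, and the title with 202 does not. The genotype of the EF libraries is given as EFPrx1MSCLC, and their titles carry 219, 221, 225 and 229. Experiment 2 held 2 libraries labelled EF (EF 1 and EF 2), 2 labelled ha (ha 1 and ha 2, whose titles add Combi and T) and 4 labelled hr (hr 1-1, 1-2, 2-1 and 2-2, whose titles add Combi and uns). All 8 titles of experiment 2 carry the number 221, and the design text calls the 3 groups EFPrx1, ha-EFPrx1 and hr-EFPrx1. What these group names abbreviate and the driver of any transgene were not given in the sources used here. Nothing states that libraries of a group came from separate animals or cultures, so the p-values speak only of library-to-library spread, part of which may be technical.

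The ERBB receptors are tyrosine kinases of the cell surface that signal as pairs. EGFR binds EGF, TGF-alpha, amphiregulin (Areg), epiregulin (Ereg), HB-EGF (Hbegf), betacellulin (Btc) and epigen (Epgn), ERBB3 and ERBB4 bind the neuregulins, and ERBB2, which has no known ligand of its own, joins the others as a partner. The ligands are made as membrane-bound precursors that ADAM proteases cut free, and the paired receptors feed the RAS-ERK and PI3K-AKT pathways. In bone and its stroma, EGFR signalling is known for maintaining proliferating progenitors, and Areg is a known target gene of YAP1 and its DNA-binding TEAD partners.

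Areg and Egfr showed the widest contrasts between the groups of experiment 2, in opposite directions, and Erbb2 encodes the preferred partner of EGFR, so the promoter windows of these 3 genes are shown. The sequences are from RefSeq (build GRCm38.p6), run 5′ to 3′ on the plus strand, which is the strand of all 3 genes, and span 250 bases before to 50 bases from the annotated start. Such a window was given for 6 of the 10 genes (Egfr, Erbb2, Areg, Btc, Tgfa and Epgn). Capitals mark matches on either strand to TGACGTCA (the full cAMP response element, CRE), TGACG (its 5-base core, which overlaps the full element), TATAAA (the TATA box), TGANTCA (AP-1) or GGAATG (the TEAD core). The Areg window is at chr5:91139349-91139648, the Egfr window at chr11:16751953-16752252 and the Erbb2 window at chr11:98412234-98412533.
Areg: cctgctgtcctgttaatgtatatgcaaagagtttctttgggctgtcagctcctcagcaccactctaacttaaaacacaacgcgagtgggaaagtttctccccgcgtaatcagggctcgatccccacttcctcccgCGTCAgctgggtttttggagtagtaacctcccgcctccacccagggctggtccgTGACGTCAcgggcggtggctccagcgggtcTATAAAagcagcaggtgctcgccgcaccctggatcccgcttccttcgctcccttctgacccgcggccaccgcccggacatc
Egfr: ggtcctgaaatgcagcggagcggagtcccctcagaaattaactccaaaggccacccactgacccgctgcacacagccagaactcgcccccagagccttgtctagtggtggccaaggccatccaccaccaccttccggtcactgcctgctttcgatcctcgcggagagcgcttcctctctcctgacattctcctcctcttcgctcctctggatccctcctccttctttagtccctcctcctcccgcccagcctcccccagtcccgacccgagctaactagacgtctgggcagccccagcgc
Erbb2: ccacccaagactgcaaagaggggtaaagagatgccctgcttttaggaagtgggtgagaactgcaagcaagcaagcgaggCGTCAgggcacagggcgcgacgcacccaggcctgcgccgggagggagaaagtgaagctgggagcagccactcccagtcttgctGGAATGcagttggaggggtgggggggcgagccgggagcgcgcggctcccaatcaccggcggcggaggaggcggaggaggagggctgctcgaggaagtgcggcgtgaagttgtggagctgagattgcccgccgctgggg
The Areg window held TGACGTCA from position -61 and TATAAA from position -31, counted from the start site, and a further CGTCA, which is TGACG on the other strand, from position -115. Of 32851 RefSeq windows of the same length, 1.79% held TGACGTCA, 20.8% held TGACG and 13.6% held TATAAA. The Erbb2 window held GGAATG from position -88, a motif found in 14.7% of windows, and CGTCA from position -171. No match to any of the 5 motifs was in the Egfr window, and TGANTCA, present in 7.81% of windows, was in none of the 6. Of the windows not shown, that of Epgn held TATAAA from position -86 and TGACG from position -101. The Btc window held CGTCA from position -113, and the Tgfa window held no match. Matches are descriptions of the letters in these windows only.

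Libraries held 14906180 to 26833876 counts in experiment 1 and 11195371 to 16378368 in experiment 2. Levels are CPM (counts scaled to library size) after TMM normalisation, which was set within each experiment, so levels are not compared across experiments. In experiment 2, the squared difference between the 2 EF libraries was, in the median over genes, 1.35 times what counting noise gives, and that of each pair of hr libraries with the same first number (1-1 and 1-2, 2-1 and 2-2) was at 1.29 times. Other pairs within a group were at 7.62 to 124 times, so experiment 2 may hold close to 1 EF and 2 hr samples, and results are also given with those pairs summed. The 11 mesenchymal marker genes had counts in every library, with a summed level of 4440 to 20045 CPM. The 12 hematopoietic and macrophage markers summed to 11871 to 33842 CPM in WT, 49.1 to 413 in EF of experiment 1 and 7.82 to 29.4 in experiment 2. Ptprc (CD45) was at 79.2 to 102 CPM in WT and at most 5.78 in EF, and Adgre1 (F4/80) at 185 to 246 and at most 3.79. The WT libraries thus carry macrophage transcripts beside stromal ones. In such bulk RNA, fewer cells of a type and less RNA per cell cannot be told apart.

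In experiment 1, EF libraries carried more Hbegf, Erbb2 and Nrg1 transcript and less Erbb3 than WT. A gene was called at an adjusted p under 0.05 (edgeR's quasi-likelihood test, Benjamini-Hochberg over all genes tested, used throughout). Epgn was too low to be tested. Of the other 9 genes, 3 rose and 1 fell, while 19.8% of 14596 genes were called, 7.70% higher and 12.1% lower. The median log2 fold change of the 9 was 1.24, against 0.04 over all genes. The 11 of 12 hematopoietic markers that fell in EF moved with all of these differences, and their part in them was not tested.

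**Figure D1:**
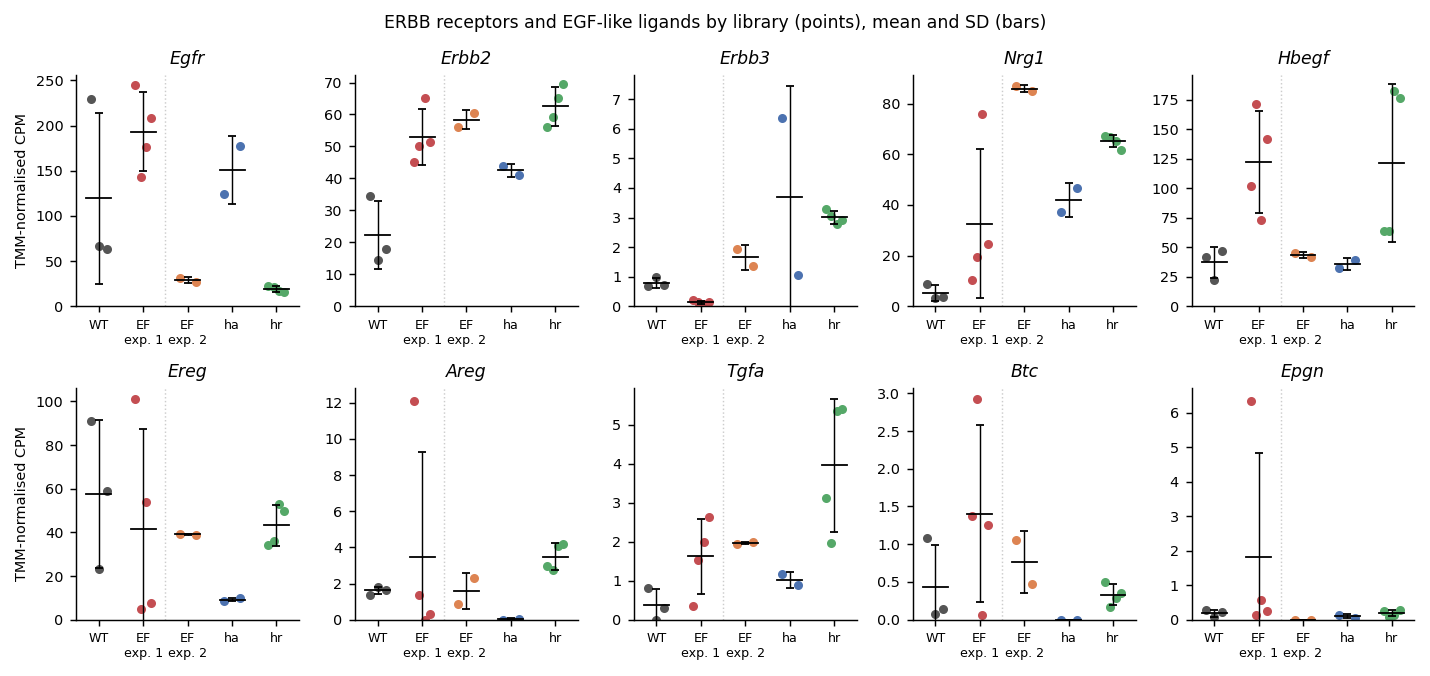
TMM-normalised CPM of the 10 genes (one panel each, linear axes from 0), with a point per library, a horizontal bar at the group mean and whiskers of 1 SD that stop at 0. The dotted line parts the 2 experiments, which were scaled separately; Egfr is at 124 and 177 CPM in the ha libraries and at most 31.5 in the EF and hr libraries of experiment 2.

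Among the receptors, Erbb2 was at 34.4, 14.6 and 18 CPM in WT 202, 234 and 237 and at 45, 50, 65.3 and 51.4 in EF 219, 221, 225 and 229. All 4 EF libraries were above all 3 WT libraries. It rose 2.37-fold (log2 1.24 ± 0.34 SE, adjusted p = 0.041), and the call was lost in 6 of 7 fits that each left out 1 library (adjusted p 0.0525 to 0.16), holding only without WT 202. Erbb3, a receptor for neuregulins with little kinase activity of its own, was low throughout, with 10 to 15 counts in each WT library and 1 to 4 in each EF library (0.72 CPM as the WT median, 0.141 as the EF median). It fell by 2.45 ± 0.53 on the log2 scale (adjusted p = 0.018), and the call was lost without WT 234 (adjusted p = 0.092), without WT 237 (0.0816) or with no low-count filter (0.0749), within a range of 0.0148 to 0.092 over the alternatives that tested it. Without EF 221 or EF 229, and under the stricter filter, Erbb3 was too low to be tested. Egfr was at 229, 66.3 and 63.1 CPM in WT and at 245, 143, 176 and 208 in EF. WT 202 lay inside the EF range and the other WT libraries well below it. The difference did not pass (log2 0.69 ± 0.50, adjusted p = 0.349), and without WT 202 it was 1.58 with an adjusted p of 0.0095. WT 202 had the lowest summed hematopoietic level of the WT libraries, 11871 CPM against 20635 and 33842, and whether this bears on Egfr was not tested. Erbb4, the other neuregulin receptor, had 0 counts in every WT library, 2 counts in EF 219 and 0 in the other EF libraries.

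Hbegf, which binds EGFR and ERBB4, was at 42.2, 22.3 and 47.2 CPM in WT and at 102, 171, 73.3 and 142 in EF. The groups did not overlap. It rose 3.28-fold (log2 1.71 ± 0.39, adjusted p = 0.0233), and the call was lost without WT 234, WT 237, EF 221 or EF 229, with adjusted p-values of 0.0561 to 0.0761 in those fits. The neuregulin Nrg1 was at 8.76, 3.32 and 3.67 CPM in WT and at 10.5, 19.3, 75.7 and 24.7 in EF. Every EF library exceeded every WT library, and EF 225 stood far above the rest. Nrg1 rose 6.16-fold (log2 2.62 ± 0.76, adjusted p = 0.0484). Without EF 225 the log2 change was 1.72 (adjusted p = 0.0516), without WT 202 it was 3.22 (0.0403), and the call was also lost without WT 234, WT 237, EF 221 or EF 229 (0.0677 to 0.171). It was lost too by limma-voom (2.25, adjusted p = 0.104), with no filter (0.0532) and with the stricter filter (0.0521), within a range of 0.0019 to 0.171 over all alternatives. No member call was left without WT 234, WT 237, EF 221 or EF 229 (Erbb3 was not tested without either of the latter), and 5 stood without WT 202.

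The remaining ligands did not pass. Ereg, another EGFR ligand, was at 90.9, 23.2 and 58.8 CPM in WT and at 101, 4.69, 53.7 and 7.43 in EF. EF 219 and 225 lay at WT levels and EF 221 and 229 below all WT libraries (log2 -0.47 ± 1.01, adjusted p = 0.768). Areg was at 1.39, 1.81 and 1.66 CPM in WT and at 12.1, 1.39, 0 and 0.312 in EF, so that 1 EF library was high and 2 were below WT. Its log2 difference was 1.09 ± 1.54 (adjusted p = 0.641), and -1.58 without EF 219 (0.355). Tgfa was at 0.808, 0 and 0.288 CPM in WT and at 0.358, 1.53, 1.98 and 2.64 in EF. Its log2 difference was 2.07 ± 1.08 (adjusted p = 0.208), and the 0 of WT 234 allows up to 0.201 CPM of the library total, before TMM scaling (3 counts, counting error only). Btc was at 1.08, 0.0755 and 0.144 CPM in WT and at 1.38, 2.92, 0.064 and 1.25 in EF, overlapping groups with a log2 difference of 1.62 ± 1.20 (adjusted p = 0.359). Epgn reached 6.34 CPM in EF 219 and at most 0.576 in the other 6 libraries. Egf itself was at 0.729 to 2.37 CPM in all 7 libraries (log2 0.08 ± 0.52, adjusted p = 0.927), and Nrg2, Nrg3 and Nrg4 did not exceed 0.521 CPM.

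Epgn, Ereg, Areg and Btc lie in 1 cluster on chromosome 5 (375.5 kb from the start of Epgn to the end of Btc, GENCODE M21 on GRCm38). Epgn is at chr5:91027464-91035215, Ereg at chr5:91074622-91093646 and Areg at chr5:91139599-91148432, all on the plus strand, and Btc is at chr5:91357261-91402994 on the minus strand. The gaps are 39.4 kb between Epgn and Ereg, 46 kb between Ereg and Areg and 209 kb between Areg and Btc. EF 219 was the highest EF library for Epgn, Ereg and Areg, but EF 221 was the highest for Btc. EF 219 also had the highest summed hematopoietic level in EF, 413 CPM against 49.1 to 65.7, which is far below the 11871 CPM of the lowest WT library.

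Around the receptors, some genes passed in experiment 1, where 19.8% of all genes tested were called, 7.70% higher and 12.1% lower. The counts of each list are to be read beside these shares. The hematopoietic markers, at 11871 to 33842 CPM in WT and 49.1 to 413 in EF, also differed between these groups. Their part in the differences of this paragraph was not tested. Of 10 genes for ligand shedding, 2 fell, the proteases Adam8 (log2 -4.32 ± 0.90, adjusted p = 0.0165) and Adam12 (-3.58 ± 0.82, 0.023), and none rose (median -0.65). Adam17, the main sheddase of several EGFR ligands, was at 100 to 242 CPM in WT and 57.1 to 103 in EF and did not pass in edgeR (-1.01 ± 0.37, 0.0922), though DESeq2 called it lower (0.0364), within a range of 0.0364 to 0.186 over its alternatives. Of 14 genes listed as restrainers of the receptors, the phosphatase Ptprj (-1.52 ± 0.23, 0.00562) and the tetraspanin Cd82 (-1.64 ± 0.46, 0.0429) fell and Socs5 (0.77 ± 0.22, 0.0452) rose (median 0.20). Among 28 adaptors and effectors, the docking protein Gab2 fell (-1.72 ± 0.34, 0.0136), and the kinase Src (1.18 ± 0.31, 0.0353) and the PI3K subunit Pik3cb (1.09 ± 0.29, 0.0359) rose (median 0.19). Of 19 genes of ERK output and feedback, the transcription factor Etv1 (-1.93 ± 0.32, 0.00757) and the feedback inhibitor Spry1 (-2.52 ± 0.51, 0.0151) fell and 17 did not pass (median -0.37). Ptprj, Gab2 and Etv1 passed in all 7 fits that left out 1 library. Without WT 234, Adam8 (adjusted p = 0.051), Spry1 (0.0508), Adam12 (0.0642), Cd82 (0.121), Socs5 (0.157), Src (0.116) and Pik3cb (0.108) were lost. Adam12, Cd82, Socs5, Src and Pik3cb were also lost without WT 237 and without EF 229. Cd82 was lost as well without WT 202 or EF 219, and Socs5, Src and Pik3cb without EF 219 or EF 221. Socs5 was further lost without EF 225 (0.0611), and the log2 change of Adam8 was -5.01 without EF 219.

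In experiment 2, ha libraries had more Egfr and less Ereg, Areg, Nrg1 and Erbb2 than EF libraries, and hr libraries had the reverse when set against ha. Of the 10 genes, 8 were tested (Btc and Epgn were too low). In ha against EF, 1 rose and 4 fell, where 42.6% of 13998 genes were called, 23.0% higher and 19.6% lower. In hr against ha, 6 rose and 1 fell, where 39.4% were called, 17.9% higher and 21.5% lower. The median log2 fold change of the 8 was -0.70 in ha against EF (0.05 over all genes) and 1.19 in hr against ha (-0.00 over all genes). Both comparisons use the same ha libraries, so their opposite signs are not independent of each other. With the close libraries summed, the called members were Egfr, Ereg and Areg in hr against ha, where 1272 of 15959 genes were called. In ha against EF, that fit holds a single summed EF sample with no spread of its own. Its log2 changes there were 2.35 for Egfr, -2.12 for Ereg and -5.45 for Areg.

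**Figure D2:**
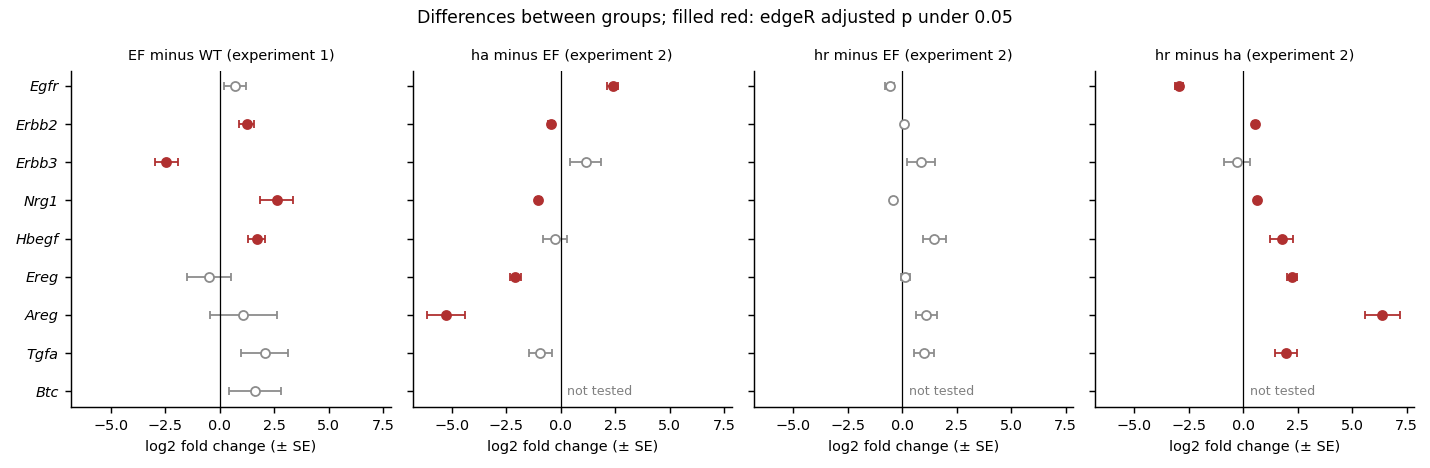
Log2 fold change (points, whiskers of 1 SE) of each gene tested, in 4 comparisons; filled red points have an edgeR adjusted p under 0.05 and Epgn was tested in none. Egfr is at 2.37 in ha minus EF and -2.95 in hr minus ha, and no point is filled in hr minus EF.

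Egfr was at 31.5 and 26.7 CPM in EF, 124 and 177 in ha, and 22.7, 21.9, 17.4 and 15.8 in hr. Both ha libraries stood above every other library of the experiment, and hr lay below EF. Egfr rose 5.18-fold in ha against EF (log2 2.37 ± 0.24, adjusted p = 0.000456) and was 7.74-fold lower in hr than in ha (log2 -2.95 ± 0.19, adjusted p = 7.37e-05). Summing the close libraries gave adjusted p-values of 0.0347 and 0.00967, the highest over the 16 alternatives of each. Of 11 markers of mesenchymal stromal cells, 6 rose and 2 (Vim and Cd44) fell in ha against EF. Over all genes, 23.0% were called higher and 19.6% lower there. The summed level of these markers was 17950 to 19865 CPM in ha, 13141 to 13379 in EF and 11852 to 13724 in hr. It was highest in ha, like Egfr, and EF and hr overlapped. The part of these markers in the Egfr difference was not tested.

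Erbb2 moved the other way and by less. It was at 56.2 and 60.4 CPM in EF, 44 and 41.1 in ha, and 56.1, 59.3, 65.1 and 69.6 in hr, with ha below all other libraries. It fell by 0.45 ± 0.13 on the log2 scale in ha against EF (adjusted p = 0.0239) and was 1.47-fold higher in hr than in ha (log2 0.55 ± 0.11, adjusted p = 0.00718). The first call was lost with no low-count filter (adjusted p = 0.052). It was also lost without EF 1 (log2 -0.51), EF 2 (-0.41) or ha 2 (-0.41), fits that leave 1 library in a group. With the close libraries summed, which leaves 1 EF sample, both calls were lost (log2 -0.49 in ha against EF, adjusted p = 0.124 in hr against ha). Erbb3 was at 1.95 and 1.36 CPM in EF, 6.36 and 1.06 in ha, and 3.29, 3.06, 2.78 and 2.93 in hr. The 2 ha libraries disagreed, one above and one below all others, and neither comparison passed (log2 1.15 ± 0.71 in ha against EF, adjusted p = 0.226; -0.29 ± 0.58 in hr against ha, 0.722). Without ha 1, hr was above ha (1.50, adjusted p = 0.0236), and without ha 2 it was below (-1.08, 0.0258). Against EF, ha was at 1.94 without ha 2 (0.00515) and -0.64 without ha 1 (0.23). Erbb4 had 0 counts in EF and ha and 1 or 2 counts in each hr library.

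Ereg was at 39.3 and 38.8 CPM in EF, 8.62 and 9.71 in ha, and 34.4, 36.2, 52.9 and 49.9 in hr. Both ha libraries were below all others, and the hr range enclosed the EF values. Ereg fell 4.25-fold in ha against EF (log2 -2.09 ± 0.24, adjusted p = 0.000691) and was 4.72-fold higher in hr than in ha (log2 2.24 ± 0.22, adjusted p = 0.00037). Its adjusted p-values reached 0.0314 and 0.0128 at most over the alternatives, with the close libraries summed.

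Areg had 10 and 29 counts in the EF libraries, 0 and 1 in ha, and 35, 32, 57 and 47 in hr. In CPM this was 0.886 and 2.31, 0 and 0.0588, and 2.95, 2.72, 4.06 and 4.17, so that ha was lowest and all hr libraries were above both EF libraries. The ratio of ha to EF was 0.0199 (95% interval 0.000492 to 0.118, counting error only), from 1 count against 39. Areg fell in ha against EF (adjusted p = 0.00288) and was higher in hr than in ha (adjusted p = 0.00098), with a ratio of 107 (19 to 4260) from 171 counts against 1. The fitted log2 values, -5.27 ± 0.87 and 6.38 ± 0.80, depend on the single count of ha 2: without ha 2 they were -7.32 and 8.43, without ha 1 -4.57 and 5.67, and without EF 2 the first was -4.43. Both calls stood in every alternative in which Areg was tested, and the stricter low-count filter did not test it.

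Nrg1 was at 86.8 and 84.9 CPM in EF, 37.3 and 46.7 in ha, and 67.1, 66.8, 65.3 and 61.8 in hr. The 3 groups did not overlap, with EF highest and ha lowest. Nrg1 fell 2.04-fold in ha against EF (log2 -1.03 ± 0.13, adjusted p = 0.000868) and was 1.55-fold higher in hr than in ha (0.64 ± 0.11, 0.00381), and with the close libraries summed both calls were lost (0.0646 and 0.104). Tgfa was at 1.95 and 1.99 CPM in EF, 1.17 and 0.882 in ha, and 3.12, 1.96, 5.34 and 5.41 in hr. It was 3.85-fold higher in hr than in ha (log2 1.95 ± 0.49, adjusted p = 0.0167), a call lost without ha 1 (0.0538), without ha 2 (0.0916) or with the close libraries summed (0.0969), and did not pass in ha against EF (-0.94 ± 0.54, 0.196). Btc had 18 counts over the EF libraries, 0 over the ha libraries and 16 over the hr libraries. For ha, 3 counts over the group were taken as the floor, and the counts of EF and hr were taken as exact. On that basis, which gives no lower bound, Btc was 7.73-fold lower in ha than in EF and 3.34-fold higher in hr than in ha. It was too low for the test over all 8 libraries, but in alternatives that tested it ha was called lower than EF with no filter and without EF 2, ha 1 or ha 2, and hr higher than ha with no filter and without EF 2. Epgn had 0 counts in EF, 3 in ha and 9 in hr, and Egf was at 0.51 to 2.29 CPM and passed in no comparison.

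Hbegf split the hr libraries. It was at 45.6 and 41.5 CPM in EF, 32.5 and 39.5 in ha, 63.4 and 63.4 in hr 1-1 and 1-2, and 182 and 176 in hr 2-1 and 2-2. All 4 hr libraries were above all EF and ha libraries, and the 2 hr pairs differed from each other by more than hr 1-1 and 1-2 differed from EF. It was 3.36-fold higher in hr than in ha (log2 1.75 ± 0.51, adjusted p = 0.03). That call was lost in 10 of 16 alternatives, among them those without EF 1, EF 2, ha 1, ha 2, hr 2-1 or hr 2-2 (adjusted p 0.0513 to 0.139), within a range of 0.000637 to 0.143. The difference between ha and EF did not pass (-0.27 ± 0.55, adjusted p = 0.716). Errfi1, an inhibitor of the EGFR kinase, was also uneven in hr, at 90.9 and 90.3 CPM in hr 1-1 and 1-2 and at 145 and 145 in hr 2-1 and 2-2.

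Between hr and EF, 0 of the 8 genes tested passed in edgeR, where 6.95% of genes were called, 3.88% higher and 3.07% lower. At an unadjusted p under 0.05, 3 were counted (Egfr, Hbegf and Nrg1), and the share of all genes at that threshold was not counted. DESeq2 called 2, Hbegf (adjusted p = 0.0148) and Nrg1 (0.0152), where it called 1973 of all 13998 genes. The limma-voom fit called 0, where it called 721 of all genes. The edgeR log2 differences were -0.40 ± 0.11 for Nrg1 (adjusted p = 0.0655), -0.58 ± 0.20 for Egfr (0.116), 1.48 ± 0.51 for Hbegf (0.116), 1.11 ± 0.48 for Areg (0.198) and 1.00 ± 0.46 for Tgfa (0.214). Erbb2 (0.10 ± 0.11), Ereg (0.15 ± 0.19) and Erbb3 (0.87 ± 0.64) differed by less than 2 of their standard errors. The edgeR call of Nrg1 appeared without ha 1 (0.0199) or ha 2 (0.0197). The median of the 8 was 0.51, against 0.01 over all genes.

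Because transcripts differ in length, levels of different genes were set side by side only as CPM per kb of merged exon (GENCODE M21, not the effective length that RSEM uses). In EF of experiment 2, Erbb2 (11.2 ± 0.579 SD, n = 2), Ereg (9.45 ± 0.0854), Hbegf (9.02 ± 0.598) and Nrg1 (8.3 ± 0.131) led and Egfr followed at 2.57 ± 0.302. In ha, Egfr led at 13.3 ± 3.29, before Erbb2 (8.17 ± 0.388), Hbegf (7.45 ± 1.02), Nrg1 (4.06 ± 0.645) and Ereg (2.22 ± 0.186), and the ranges of Erbb2 and Hbegf overlapped. In hr, Hbegf (25.1 ± 13.8, n = 4) overlapped Erbb2 (12 ± 1.15), Ereg (10.5 ± 2.29) overlapped Erbb2 too, Nrg1 was at 6.31 ± 0.235, Areg at 2.86 ± 0.615 and Egfr at 1.72 ± 0.3. In experiment 1, WT was led by Ereg (14 ± 8.21, n = 3), Egfr (10.5 ± 8.37) and Hbegf (7.7 ± 2.72), whose ranges overlapped. EF of that experiment was led by Hbegf (25.3 ± 8.91, n = 4), Egfr (17 ± 3.85), Erbb2 (10.2 ± 1.67) and Ereg (10.1 ± 11), and each of these overlapped its neighbour in the order except Egfr and Erbb2, which came close (12.6 at the lowest for Egfr, 12.5 at the highest for Erbb2).

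Summed over the 7 EGFR ligands (Areg, Ereg, Hbegf, Btc, Tgfa, Epgn and Egf), the level was 20.3 and 20.4 CPM per kb in EF of experiment 2, 9.24 and 10.9 in ha, 24.7 and 24.6 in hr 1-1 and 1-2, and 54.8 and 53.2 in hr 2-1 and 2-2. The 3 groups did not overlap, with ha lowest and hr highest. Hbegf made up 46.5% and 42.2% of that sum in EF, 72.8% and 74.7% in ha, and 53.1% to 68.5% in hr. Ereg made up 46.8% and 46.1% in EF, 22.6% and 21.5% in ha, and 22.8% to 35.7% in hr. In experiment 1 the 3 WT libraries had more Ereg than Hbegf per kb, with Hbegf at 26.8%, 38.8% and 38% of the sum. The EF libraries parted, with Hbegf at 91.3% in EF 221 and 90.9% in EF 229, and at 35.5% in EF 219 and 52.3% in EF 225, where Ereg held 41.1% and 44.8%. These sums and shares are descriptions with no test.

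**Figure D3:**
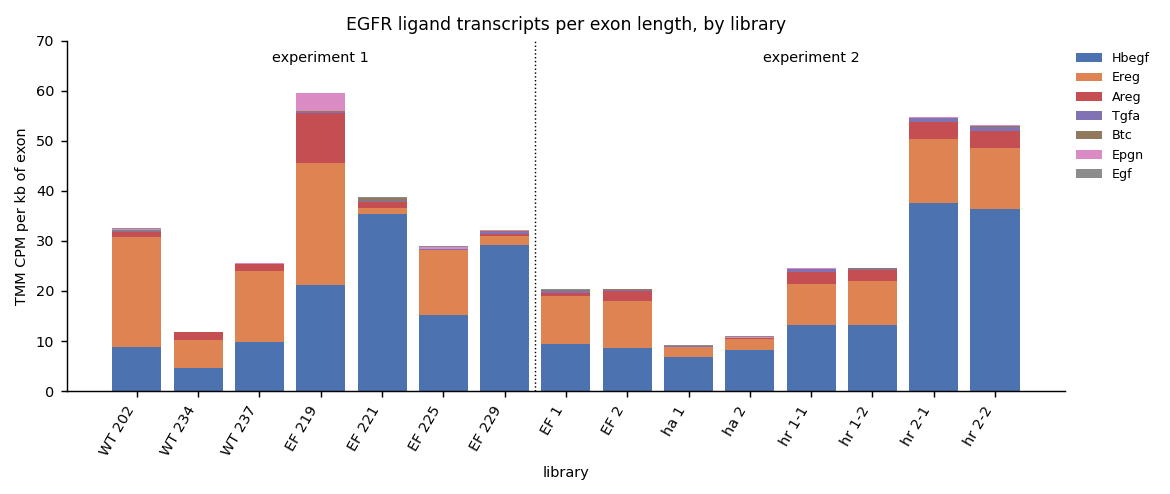
Stacked bars of the CPM per kb of exon of the 7 EGFR ligands in each of the 15 libraries; the dotted line parts the 2 experiments. The ha bars are the lowest of experiment 2 (9.24 and 10.9 in sum), and hr 2-1 and 2-2 the highest (54.8 and 53.2).

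Some genes that act around the receptor also differed between ha and the other groups of experiment 2. Over all genes tested, 42.6% were called in ha against EF, 39.4% in hr against ha and 6.95% in hr against EF. The counts of each list below are to be read beside these shares. Of 10 shedding genes, 4 rose and 2 fell in ha against EF (median 0.15). Adam8 was at 60.3 and 60 CPM in EF, 7.82 and 6.24 in ha, and 41.3 to 52.5 in hr, and fell by 3.10 ± 0.17 on the log2 scale (adjusted p = 6.98e-05). Adam12 was at 0.0886 and 0.239 CPM in EF, 5.48 and 6 in ha, and 0.0842 to 0.532 in hr, and rose (log2 5.03 ± 0.72, adjusted p = 0.00168; 4.53 without EF 1 and 5.86 without EF 2). The protease Bace1, which cuts neuregulins, rose too (1.37 ± 0.21, 0.00231), a call lost with the close libraries summed (0.082). In hr against ha, 3 rose and 3 fell (median -0.12), with Adam8 at 2.78 ± 0.16 (4.48e-05), Adam12 at -3.93 ± 0.50 (0.00105) and Bace1 at -1.40 ± 0.17 (0.000949). None of the 10 passed between hr and EF (median 0.04).

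Of the 14 genes tested that were listed as restrainers, 4 rose and 1 fell in ha against EF (median 0.17). The 4 were Lrig1, Lrig2 and Lrig3, a family whose founding member promotes the breakdown of ERBB receptors, and Errfi1. Whether Lrig2 and Lrig3 restrain the receptors was not tested. Lrig3 was at 17.2 and 14.4 CPM in EF, 60.9 and 73.3 in ha, and 9.18 to 16.1 in hr, and rose 4.25-fold (log2 2.09 ± 0.26, adjusted p = 0.000973). Lrig2 was at 16.7 and 17.3 CPM in EF, 42.1 and 34.2 in ha and 20.1 to 23.1 in hr (1.16 ± 0.14, 0.000857), a call lost with the close libraries summed (0.0732). Lrig1 was at 128 and 131 CPM in EF, 380 and 187 in ha and 101 to 148 in hr (1.13 ± 0.34, 0.0292), with ha 1 far above ha 2, and its call was lost without ha 1 (0.52, 0.16), EF 1 (0.133) or EF 2 (0.125). Errfi1 was at 88.1 and 95.4 CPM in EF and 170 and 204 in ha (1.03 ± 0.27, 0.0186), and that call was lost without EF 1 (0.109), EF 2 (0.0847) or ha 2 (0.0784) and with the close libraries summed (0.145). In hr against ha, 2 rose and 5 fell (median -0.22), with Lrig3 at -2.43 ± 0.21 (0.000217), Lrig2 at -0.79 ± 0.12 (0.00188) and Lrig1 at -1.20 ± 0.28 (0.0121; -0.60 and 0.093 without ha 1). The 14 gave no call between hr and EF (median 0.04).

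**Figure D4:**
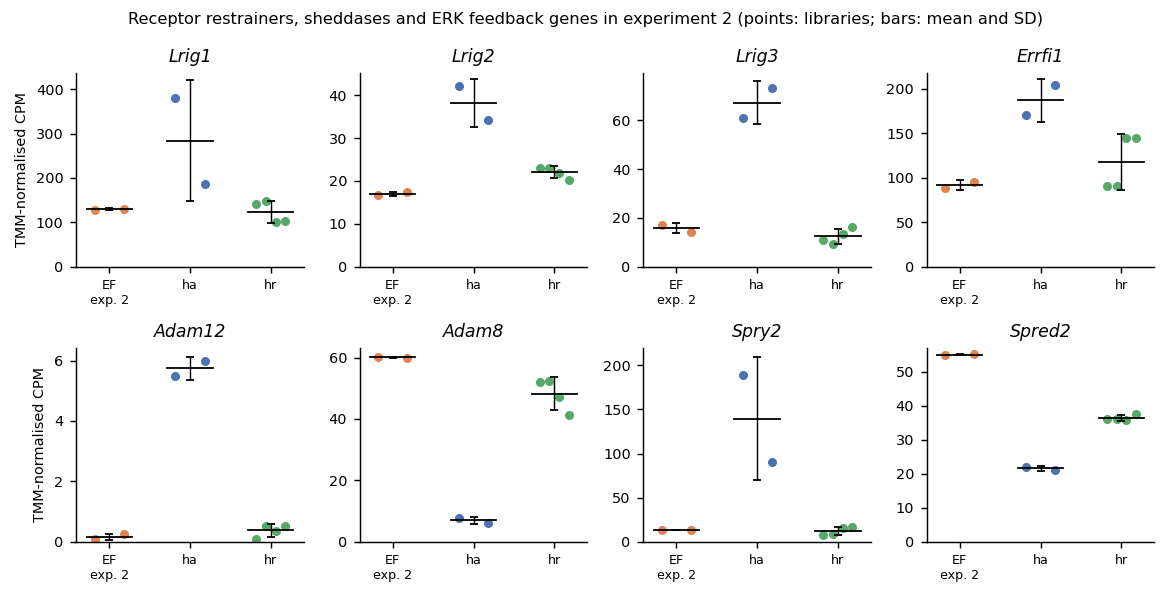
TMM-normalised CPM of 8 genes around the receptor in experiment 2 (linear axes from 0), with a point per library, a horizontal bar at the group mean and whiskers of 1 SD. The ha libraries lie above all others for Lrig1, Lrig2, Lrig3, Errfi1, Adam12 and Spry2, and below all others for Adam8 and Spred2 (22.1 and 21 CPM).

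Among 28 adaptors and effectors, 7 rose and 5 fell in ha against EF (median 0.01). Among those that fell were Hras (-1.49 ± 0.15, adjusted p = 0.00045) and Nras (-1.14 ± 0.17, 0.00198), which encode GTPases that pass the receptor signal on. Hras was at 59.7 and 56.6 CPM in EF, 20.5 and 20.8 in ha, and 43.6 to 57.1 in hr. The PI3K regulatory subunit Pik3r1 was at 101 and 104 CPM in EF, 250 and 247 in ha, and 52.4 to 72.4 in hr, and rose (1.28 ± 0.17, 0.00122). With the close libraries summed, Hras stood and Nras (0.0618) and Pik3r1 (0.0659) were lost. In hr against ha, 6 rose and 6 fell (median 0.13), with Pik3r1 at -2.03 ± 0.14 (9.01e-05) and Hras at 1.31 ± 0.13 (0.000443). Between hr and EF, Map2k1, which encodes the ERK kinase MEK1, rose (0.63 ± 0.10, 0.016) and Pik3r1 fell (-0.75 ± 0.14, 0.0285), and 26 did not pass (median 0.04). Without EF 1 or EF 2, neither stood (0.198 to 0.258), and Pik3r1 was also lost without hr 1-2, hr 2-1 or hr 2-2 (0.0572 to 0.0604).

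Genes of ERK output and feedback moved in both directions. Of 17 tested, 5 rose and 7 fell in ha against EF (median -0.32). The feedback inhibitor Spry2 was at 13.2 and 13.2 CPM in EF, 189 and 90.2 in ha, and 8 to 16.6 in hr, and rose (log2 3.40 ± 0.49, adjusted p = 0.00168; 2.76 without ha 1). Its relative Spred2 was at 55 and 55.2 CPM in EF, 22.1 and 21 in ha, and 35.9 to 37.6 in hr, and fell (-1.35 ± 0.10, 0.000162). Cyclin D1, encoded by Ccnd1, was at 824 and 800 CPM in EF, 109 and 81.8 in ha, and 406, 421, 898 and 907 in hr, and fell (-3.09 ± 0.46, 0.00206). With the close libraries summed, Spred2 and Ccnd1 stood and Spry2 was lost (0.0531). In hr against ha, 5 rose and 4 fell (median 0.23), with Spry2 at -3.52 ± 0.38 (0.000519; -2.89 without ha 1) and Spred2 at 0.76 ± 0.09 (0.000637; 0.0623 with the close libraries summed). The immediate early gene Fos was at 428 and 40.2 CPM in ha, 0.51 to 3.19 in hr and 2.39 and 3.35 in EF, and was lower in hr than in ha (-7.11 ± 0.96, 0.00136; -4.56 without ha 1 and -7.98 without ha 2). Between hr and EF, Spred2 (-0.60 ± 0.08, 0.0117) and the ERK phosphatase gene Dusp6 (-0.79 ± 0.13, 0.0189) fell and 15 did not pass (median 0.02). Neither stood without EF 1 or EF 2 (0.18 to 0.218), and Dusp6 was also lost without hr 1-1, hr 1-2 or hr 2-2 (0.0501 to 0.0518).

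The epithelial and hematopoietic marker sums of ha lay apart from those of EF and hr, and the endothelial sums did not. The 11 epithelial markers summed to 14.3 to 16.4 CPM in EF, 0.824 to 1.17 in ha and 40.6 to 53.3 in hr. Only 3 could be tested (Krt19, Krt14 and Krt8). They were called lower in ha than in EF (19.6% of all genes) and higher in hr than in ha (17.9%). In ha they were at 0 to 0.584 CPM and so were tested through the other groups, which largely set the direction of these calls. Krt19 and Krt14 were also higher in hr than in EF (3.88% of all genes), and Krt8 did not pass (log2 -0.52 ± 0.56, adjusted p = 0.601). Of the defining epithelial markers, Epcam was at 0 in every library of experiment 2 and Cdh1 at 0.0588 to 0.219 CPM. The 12 hematopoietic markers summed to 9.3 to 9.57 CPM in EF, 13.1 to 29.4 in ha and 7.82 to 9.58 in hr, with Adgre1 at 0 throughout. In ha 1 and ha 2, Lyz2 was at 6.87 and 10.9 CPM, Cd14 at 3.36 and 14.2, and Ptprc at 0. The 6 endothelial markers summed to 7.23 to 19.1 CPM in the 3 groups and to 2.18 to 115 in EF of experiment 1, with Pecam1 at most 1.01 CPM in any library. The part of the keratin genes in the ligand differences was not tested.

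Egfr and Hbegf had the highest mean CPM over all 15 libraries among the receptors and the ligands, though not in every group, and genes with a like pattern were ranked by Pearson's r of log2 CPM over the 15 libraries, each experiment centred on its own mean, among 13101 genes. The highest for Egfr were Kcnd1 (0.950), Cacna2d1 (0.943), Npr2 (0.943), Pdgfra (0.943) and Tbcel (0.934). Pdgfra, the PDGF receptor alpha of mesenchymal cells, was at 258 to 261 CPM in EF of experiment 2, 1450 to 1608 in ha and 81.7 to 268 in hr. For Hbegf they were Capn2 (0.953), Ppp2r2a (0.936), Prmt5 (0.920), Selenot (0.918) and Eif2s3x (0.906). These are descriptions over libraries that share groups and, in part, are near copies of each other. Between pairs of members tested in both experiments, r ranged from -0.78 (Erbb3 and Nrg1) to 0.90 (Erbb2 and Nrg1). The next highest were 0.87 (Erbb2 and Tgfa) and 0.80 (Hbegf and Tgfa), and the next lowest -0.69 (Erbb2 and Erbb3) and -0.61 (Egfr and Areg).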

How the data were processed

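The authors deposited 1 table of expected counts per gene for the 15 libraries, which need not be whole (8.2681% were not), made with STAR and RSEM on GRCm38.p6 per the submitters' processing notes. Annotation release and strand setting were not given in the sources used here; reads of overlapping or antisense genes therefore cannot be told apart. Symbols were matched for 55144 of 55471 genes. Counts were rounded and tested with edgeR 4.0.16 (R 4.3.3): filterByExpr with a minimum count of 10, TMM, quasi-likelihood test, two-sided, threshold 0.05, with the 7 libraries of experiment 1 in one fit and the 8 of experiment 2 in another. No test was made between experiments, which were run on different flowcells. Alternatives were DESeq2 1.42.0, limma-voom (limma 3.58.1), DESeq2 size factors, other filters (none, or 5 CPM), fits of only the groups compared, a replicate block, close libraries summed and each library left out. The scripts were tested on simulated data. The 10 members, the gene lists and the tests were chosen with earlier results of these data known. Named were all members, the 5 other family genes, up to 3 called genes of each pathway list per comparison by p-value, and the 5 genes most like Egfr and Hbegf; Adam17, Lrig1 in ha against EF, Pdgfra and the keratins were added after their values were seen, and 1 gene that the rule names is not reported here. Intervals and floors cover counting error only.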

Additional observations from a re-analysis of the deposited data

Results flagged for a closer look

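In groups of 4 libraries, the gap between the highest or the lowest library and its neighbour was divided by the range of the group. The result was compared with Dixon's 95% critical value. Of 29 such groups of levels, 3 exceeded it. A chance rate of about 1 in 20 holds only for independent libraries. The near-copy pairs of hr are not independent, so the 3 cannot be set against that rate. All 3 were in EF 219 of experiment 1. Areg was at 12.1 CPM there and next highest at 1.39, Epgn at 6.34 and next at 0.576, and Erbb4 at 0.102 and next at 0, where 0.102 CPM stands for 2 counts. With Erbb4 at 0 in the other EF libraries, any count would have exceeded the critical value. Areg and Epgn are neighbours in the chromosome 5 ligand cluster, with Ereg between them, and Ereg was highest in EF 219 as well (101 CPM) without a gap of that size. No cause was tested.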

How the results depend on the processing

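The calls of Egfr, Ereg and Areg in ha against EF and hr against ha stood in every alternative that tested them. Members called in EF against WT were 4, 2 with no filter, 2 with the stricter filter and 0 to 5 with 1 library left out. In ha against EF they were 5, 3 with the close libraries summed and 4 to 6 with 1 left out; in hr against EF 0, 2 by DESeq2, 1 in the fit of only those groups and 0 to 1; in hr against ha 7, 3 with the close libraries summed and 6 to 7. All genes called were 2887 in EF against WT, 4598 by DESeq2 and 1219 to 5087 with 1 library left out. In ha against EF they were 5961, 736 summed and 3070 to 5732. In hr against EF they were 973, 1973 by DESeq2, 1927 in the fit of only those groups, 322 with the replicate block, 0 summed and 0 to 1796. In hr against ha they were 5517, 1272 summed and 4515 to 5123. The fits without EF 1, without EF 2 and with the close libraries summed gave the lowest counts of genes called in hr against EF. Each of them leaves a lone EF sample, assumed to vary like the other groups.

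Some differences that did not pass changed sign. In EF against WT these were Areg (-1.27 by limma-voom, -1.58 to 1.43 with 1 library left out), Ereg (-1.44 to 0.03) and Egf (-0.11 by limma-voom, -0.29 to 0.25). In experiment 2 they were Erbb3 in ha against EF (-0.64 to 1.94), Erbb3 in hr against ha (0.31 by limma-voom, -1.08 to 1.50) and Egf in hr against EF (-0.10 to 0.45). The cause was not tested. Libraries with the same last number in their titles had hardly correlated deviations across groups (-0.012 to 0.02). Each correlation uses EF or hr libraries that differ by little more than counting noise, so it cannot tell whether that number pairs libraries. The replicate block on that number gave 6 calls of members in hr against ha, losing Hbegf (adjusted p = 0.0503), and 5 and 0 in the other comparisons of experiment 2. Scaling by DESeq2 size factors moved no median of all genes by 0.1 or more. Depth limits Areg and Btc in ha and Erbb3 in EF of experiment 1, where libraries held 0 to 4 counts.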

Other observations

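The title number 221 occurs in both experiments, for 1 EF library of experiment 1 and both EF libraries of experiment 2. In CPM of the library total, without TMM scaling, the library of experiment 1 had 156 for Egfr, 5.12 for Ereg, 21 for Nrg1 and 187 for Hbegf. The libraries of experiment 2 had 31.8 and 26.6 for Egfr, 39.6 and 38.6 for Ereg, 87.5 and 84.6 for Nrg1, and 46 and 41.4 for Hbegf. Flowcell and experiment cannot be told apart, the labels do not say what the number marks, and the difference was not tested.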
